A study of Mus musculus with 13 samples.

Results

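The cell division genes described here are a list of 42 mouse genes named for what they do in DNA replication and mitosis. Of these 42, 38 were measured by a probe set of their own, among 18820 genes measured in that way in the series. Ccne2 was read only together with Ints8, Foxm1 only together with Tex52, and Kif20a only together with Cdc23, each on a probe set paired with more than 1 symbol, so they have no value of their own. Expression of Ccnb1 is not analysed here. Expression was measured on Affymetrix arrays in 100 ng of total RNA from epididymal white adipose tissue, the large abdominal fat depot of male mice. The study asked whether the ATP receptor P2X7 matters in the fat of obese mice, and it crossed genotype with diet. P2X7 knockout mice (KO) carried B6.129P2-P2rx7tm1Gab/J and had been backcrossed to B6 for 7 generations, and the wild type mice (WT) were C57/BL6. From 6 weeks of age the mice ate a high-fat diet with 60% of its energy as fat (D12492) or chow with 13% of its energy as fat (Harlan Teklad), for 12 weeks, and the tissue was taken at 18 weeks.

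The groups held 4 arrays of KO mice on the high-fat diet, 3 of WT mice on the high-fat diet, 3 of KO mice on chow and 3 of WT mice on chow. Nothing in the labels says that each array stands for a separate animal, so p-values measure the spread between these arrays, which may be technical. The knockout is carried by every cell of the animal and the arrays read the whole depot, with its adipocytes, vessels, surface layer and immune cells. Values are log2 expression after robust multi-array averaging (RMA), so a difference of 1 is a 2-fold change. The mean over 9 adipocyte marker genes lay between 11.42 and 11.69 in the KO high-fat arrays, between 11.23 and 11.65 in WT on the high-fat diet, between 12.12 and 12.19 in KO on chow and between 12.01 and 12.17 in WT on chow. Markers of testis and germ cells, which neighbour this depot and would also carry cell cycle RNA, had a mean over 11 genes between 3.98 and 4.27 on all arrays. P2rx7 averaged 9.06 in KO and 9.53 in WT on the high-fat diet, and 8.06 in KO and 8.21 in WT on chow, with neither genotype difference past the threshold (limma, adjusted p = 0.464 and 0.741). The position of its probe set against the altered stretch of P2rx7 is unknown here, and the values therefore check nothing about the labels.

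A cell that divides first licenses its replication origins by loading the Mcm helicase, then, driven by cyclin E and E2F factors, copies its DNA from nucleotides that ribonucleotide reductase makes. It then builds up cyclin A, cyclin B and Cdk1, assembles a spindle, attaches chromosomes through kinetochores under the control of checkpoint kinases, and splits. Mature adipocytes do not divide, while macrophages, progenitor cells and endothelial cells of fat can, and macrophages are known to proliferate locally in the fat of obese mice. In the genome, many genes of G2 and mitosis share a cell cycle homology region (CHR element) near the start of transcription, often with CCAAT boxes upstream, and many G1/S genes carry E2F sites.

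Promoter sequences are shown for 6 members, with the motifs named above marked in them. They are the member with the largest diet difference in WT mice within the mitotic cyclin, mitotic kinase, spindle, kinetochore, licensing and G1/S groups; of the spindle group, Tpx2 had the largest and Prc1, the next with a promoter in the table, is printed. Each runs 5′ to 3′ from 250 bases before to 50 bases after the start of transcription, from RefSeq on GRCm38.p6. Capitals mark the CHR element TTTGAA, the CCAAT box CCAAT and the E2F site TTTGGCGC or TTTCGCGC, on either strand, so that CCAAT on the other strand appears as ATTGG. Ccnb2 lies at chr9:70421505-70421804 on the minus strand, Bub1 at chr2:127831810-127832109 on the minus strand, Prc1 at chr7:80294201-80294500 on the plus strand, Cenpe at chr3:135212313-135212612 on the plus strand, Mcm6 at chr1:128359656-128359955 on the minus strand and E2f8 at chr7:48881547-48881846 on the minus strand.
Ccnb2: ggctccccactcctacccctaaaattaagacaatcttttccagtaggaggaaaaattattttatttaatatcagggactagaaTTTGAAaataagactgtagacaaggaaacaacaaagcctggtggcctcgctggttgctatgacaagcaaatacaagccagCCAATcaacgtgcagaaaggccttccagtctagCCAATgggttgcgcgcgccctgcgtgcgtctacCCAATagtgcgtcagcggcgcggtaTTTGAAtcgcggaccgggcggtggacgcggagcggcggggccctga
Bub1: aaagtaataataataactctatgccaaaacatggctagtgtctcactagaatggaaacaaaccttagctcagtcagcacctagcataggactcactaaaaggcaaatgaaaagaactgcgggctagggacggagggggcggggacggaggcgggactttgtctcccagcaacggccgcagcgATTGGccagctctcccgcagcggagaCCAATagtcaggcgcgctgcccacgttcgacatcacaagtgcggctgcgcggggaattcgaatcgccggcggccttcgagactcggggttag
Prc1: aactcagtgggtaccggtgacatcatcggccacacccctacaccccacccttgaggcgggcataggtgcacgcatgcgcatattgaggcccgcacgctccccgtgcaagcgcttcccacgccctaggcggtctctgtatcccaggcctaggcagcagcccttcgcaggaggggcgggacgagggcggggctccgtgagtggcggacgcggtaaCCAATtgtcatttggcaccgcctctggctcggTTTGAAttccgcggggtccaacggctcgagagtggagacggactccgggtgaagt
Cenpe: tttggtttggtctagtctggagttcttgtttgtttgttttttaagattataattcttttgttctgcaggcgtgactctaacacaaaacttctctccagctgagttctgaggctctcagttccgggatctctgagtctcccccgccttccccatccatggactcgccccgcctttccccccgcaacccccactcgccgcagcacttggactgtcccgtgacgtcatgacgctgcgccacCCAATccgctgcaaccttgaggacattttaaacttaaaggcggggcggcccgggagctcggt
Mcm6: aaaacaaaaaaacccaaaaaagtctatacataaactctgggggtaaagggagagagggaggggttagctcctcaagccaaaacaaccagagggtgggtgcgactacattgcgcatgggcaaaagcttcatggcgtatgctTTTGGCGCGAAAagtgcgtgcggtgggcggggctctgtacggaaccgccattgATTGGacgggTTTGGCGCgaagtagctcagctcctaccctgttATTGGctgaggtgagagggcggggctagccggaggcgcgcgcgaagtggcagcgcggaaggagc
E2f8: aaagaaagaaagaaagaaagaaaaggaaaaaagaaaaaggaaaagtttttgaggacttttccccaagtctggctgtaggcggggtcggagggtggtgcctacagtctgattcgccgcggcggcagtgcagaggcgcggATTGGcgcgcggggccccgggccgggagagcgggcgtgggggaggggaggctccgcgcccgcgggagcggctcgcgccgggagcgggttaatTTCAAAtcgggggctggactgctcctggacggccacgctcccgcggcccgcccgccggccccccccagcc
Ccnb2 held 3 CCAAT boxes, beginning at -87, -54 and -21, and a CHR element beginning at 5, with a further CHR element at -167. Prc1 held the same arrangement with 1 of each, a CCAAT box at -37 and a CHR element at -5. Mcm6, which is a subunit of the helicase, held no CHR element in this window but 3 E2F sites, at -110, -106 and -47, the first and second of which overlap on opposite strands. Bub1 and Cenpe held CCAAT boxes and no CHR element of these letters, and E2f8 held a CHR element on the opposite strand at -20.

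Over the list, 35 of the 42 members matched the promoter table, with 37 windows, since Mcm7 and Prc1 have 2 overlapping windows each. Aurkb, Ccna2, Ccne2, Foxm1, Kif20a, Mcm4 and Tpx2 are named only. The CHR element was present in 21 of 37 member windows (56.8%), against 17.9% of all 32851 promoter windows of that length. The CCAAT box was present in 28 windows (75.7%), against 37.4% of all, and both together in 18 (48.6%), against 6.95%. The E2F site was present in 5 windows (13.5%), against 0.813%. Only the letters given above were searched, so other forms of these sites are not counted here or in the figure. These motifs divided the members by role: of 23 mitosis genes 17 held a CHR element (73.9%) and 1, Cdk1, an E2F site, whereas of 12 genes of G1/S and DNA replication 3 held a CHR element (25%) and 4, namely Mcm3, Mcm5, Mcm6 and Mcm7, an E2F site (33.3%). CCAAT boxes did not divide them, with 17 of 23 mitosis genes (73.9%) and 9 of 12 genes of G1/S and replication (75%). The median first base was -15 for 27 CHR elements, -57 for 57 CCAAT boxes and -108 for 8 E2F sites, counted per window, and 2 pairs of sites of different motifs overlapped. A match of letters is a description of the sequence and no evidence that a factor binds there.

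**Figure D1:**
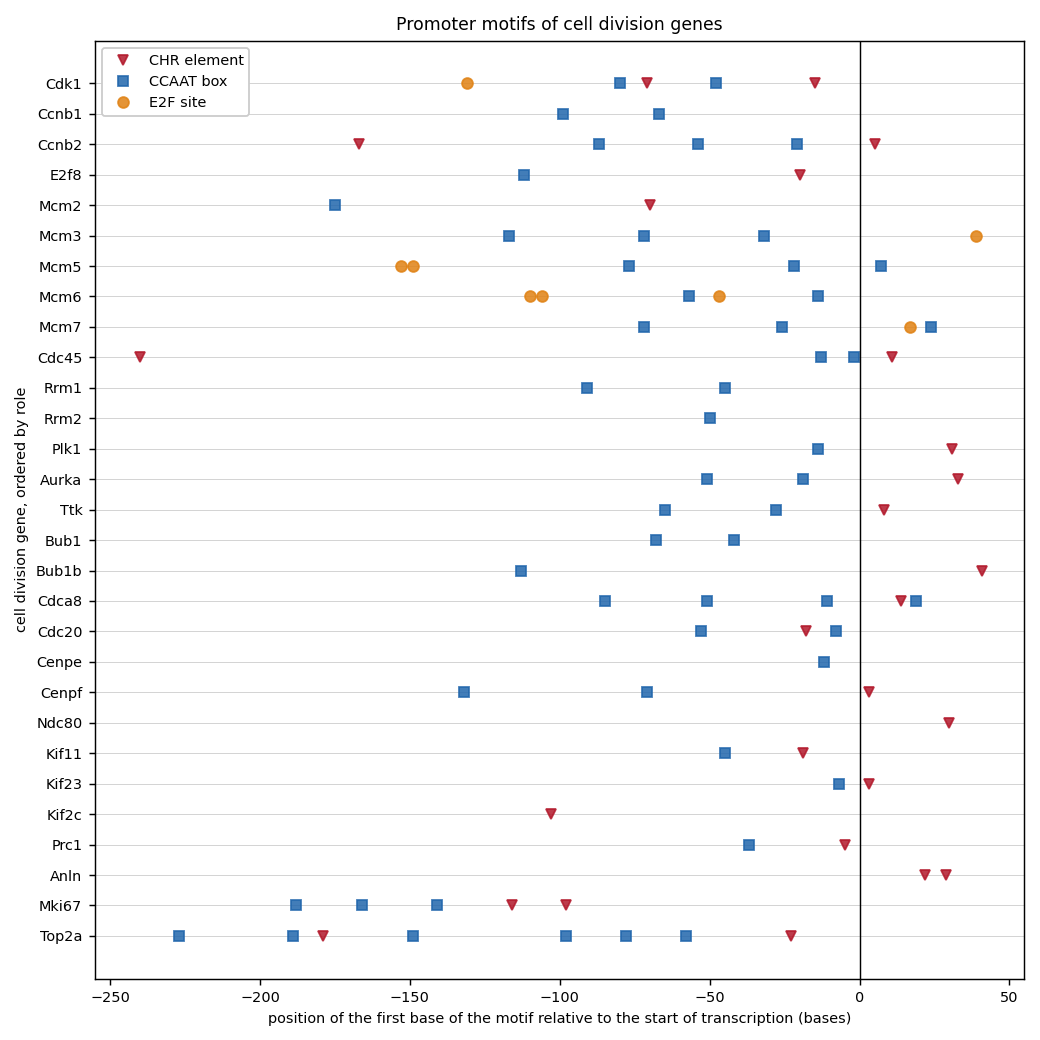
Position of each motif (bases from the start of transcription, horizontal axis) in the promoter of each cell division gene that holds at least 1 of them (rows, ordered by role; first window where a gene has 2), with colours and shapes for the CHR element, the CCAAT box and the E2F site. CHR elements sit closer to the start than CCAAT boxes, with median first bases of -15 and -57 when second windows, not drawn here, are counted too. Of the 5 genes with an E2F site, 4 are Mcm genes.

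The high-fat diet came with higher RNA of nearly the whole list, in both genotypes. In KO mice 37 of the 38 measured genes rose and 0 fell at an adjusted p of 0.05 (limma, Benjamini-Hochberg over all genes), where 14.5% of all genes rose and 19.7% fell. In WT mice 37 rose and 0 fell, where 17.7% of all genes rose and 18.1% fell. The median difference between high-fat diet and chow over the 38 genes was 1.51 in KO mice and 1.62 in WT mice, while over all genes it was -0.06 in KO and -0.03 in WT. Every high-fat array lay above every chow array for 37 members in KO mice, a pattern that 17.5% of all genes showed, and for 38 members in WT mice, which 20.8% of all genes showed. At least 2-fold higher on the high-fat diet were 29 members in KO and 30 in WT, and at least 4-fold higher were 10 in KO and 12 in WT. Of all 18820 genes, 712 in KO and 916 in WT were at least 2-fold higher, and 137 in KO and 208 in WT at least 4-fold. Because the tissue was read as bulk RNA, more cells in division and more of this RNA per cell cannot be told apart.

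**Figure D2:**
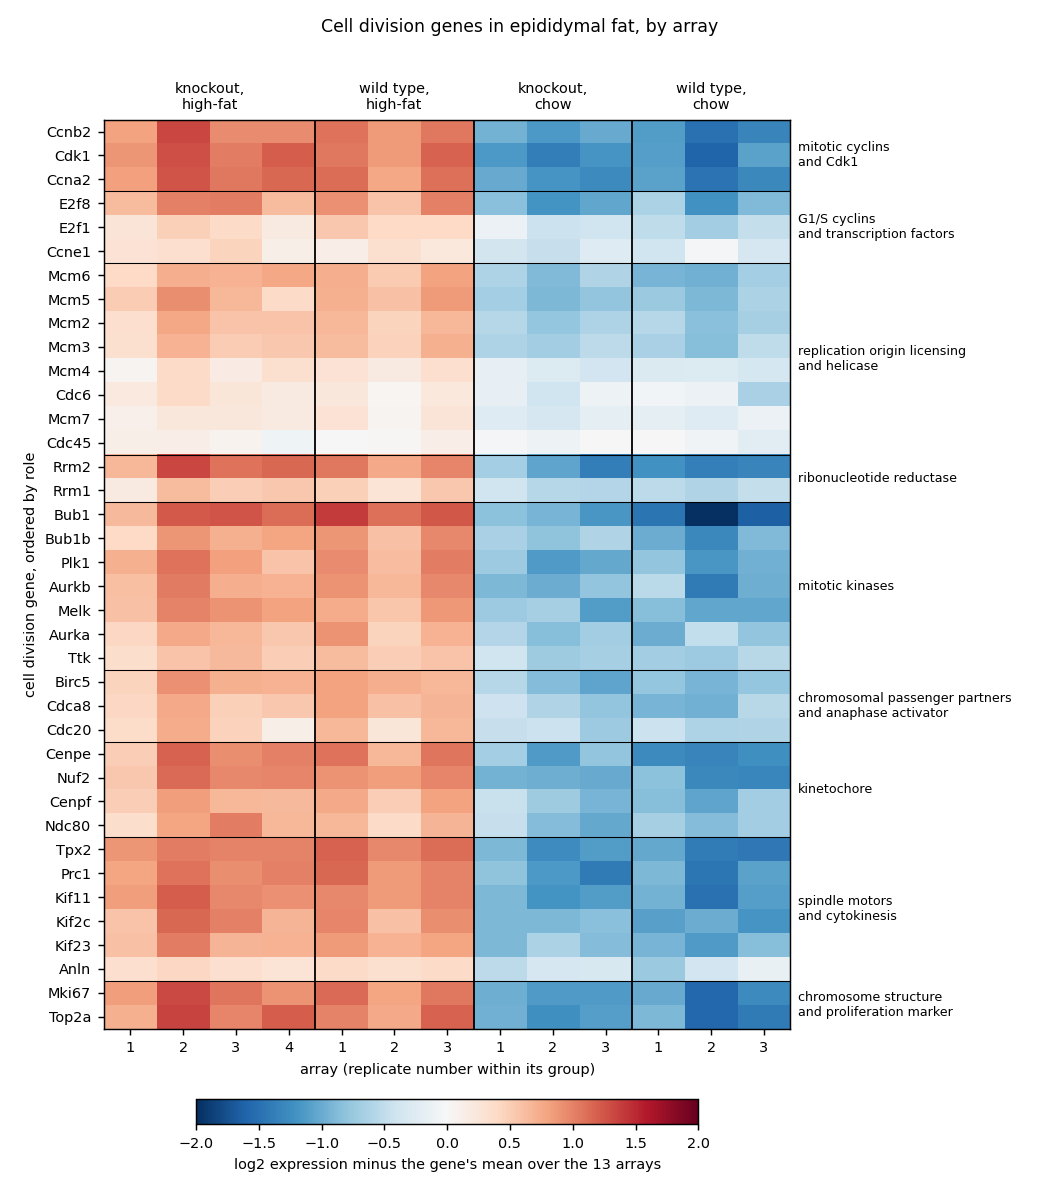
Log2 expression of each of the 38 measured cell division genes (rows, by role) on each of the 13 arrays (columns, from left: KO high-fat diet, WT high-fat diet, KO chow, WT chow), coloured as the difference from that gene's mean over all arrays. The 7 high-fat columns are above the mean and the 6 chow columns below it for 37 of the genes that rose in both genotypes, with Cdc45 nearly flat.

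The genes that mark dividing cells most directly were among those with the larger differences. Mki67, which encodes the Ki-67 protein on mitotic chromosomes, read 8.65, 9.12, 8.88 and 8.71 in KO mice on the high-fat diet, against 6.84, 6.67 and 6.67 in KO mice on chow. In WT mice it read 8.94, 8.60 and 8.86 on the high-fat diet, against 6.79, 6.24 and 6.53 on chow. All 7 high-fat arrays were thus higher than all 6 chow arrays, and the lowest high-fat array was well clear of the highest chow array. The difference was 2.11 ± 0.14 in KO (adjusted p = 2.04e-07) and 2.28 ± 0.15 in WT (adjusted p = 1.24e-07; log2 ± SE from limma here and throughout). Top2a, the topoisomerase that untangles sister chromatids, read 7.98, 8.62, 8.24 and 8.47 in KO on the high-fat diet, against 6.30, 6.04 and 6.16 in KO on chow. In WT it read 8.25, 8.02 and 8.45 on the high-fat diet, against 6.36, 5.70 and 5.85 on chow. The groups did not overlap, and Top2a rose by 2.16 ± 0.17 in KO and 2.27 ± 0.18 in WT. Top2a has 2 further probe sets, which read 3.50 or less on every array and did not follow this pattern (differences of -0.06 and 0.38 in KO, -0.48 and 0.07 in WT).

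Cdk1, the kinase that drives entry into mitosis, rose most of all members in KO mice. It read 8.50, 8.90, 8.65 and 8.83 in KO on the high-fat diet, against 6.46, 6.22 and 6.43 in KO on chow. WT arrays read 8.67, 8.46 and 8.79 on the high-fat diet, against 6.51, 6.01 and 6.55 on chow. These are differences of 2.35 ± 0.14 (5.08-fold, adjusted p = 1.17e-07) in KO and 2.29 ± 0.15 (4.89-fold, adjusted p = 1.24e-07) in WT, and within each diet the arrays of the 2 genotypes overlapped. Its cyclin partners moved by similar amounts. Ccnb2, cyclin B2, read 9.79, 10.32, 9.92 and 9.93 in KO on the high-fat diet, against 8.03, 7.83 and 7.98 in KO on chow, a difference of 2.04 ± 0.12. In WT, Ccnb2 read 10.07, 9.83 and 10.04 on the high-fat diet, against 7.86, 7.49 and 7.65 on chow, a difference of 2.31 ± 0.13. Ccna2, cyclin A2, which acts in S phase and G2, rose by 2.23 ± 0.13 in KO and 2.28 ± 0.13 in WT.

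The measured genes of G1/S, when a cell commits to copying its DNA, had smaller differences than Cdk1, Ccnb2 and Ccna2. Ccne1, cyclin E1, read 7.61, 7.66, 7.78 and 7.45 in KO on the high-fat diet, against 6.97, 6.87 and 7.06 in KO on chow. The WT values were 7.45, 7.65 and 7.54 on the high-fat diet, against 6.93, 7.30 and 6.99 on chow. The groups stayed apart by a narrow gap, and Ccne1 rose by 0.66 ± 0.10 in KO and 0.48 ± 0.11 in WT, or 1.58-fold and 1.39-fold. E2f1, an activator of S phase genes, rose by 0.64 ± 0.10 in KO and 1.00 ± 0.10 in WT. E2f8, an atypical E2F that represses E2F targets, read 5.92, 6.28, 6.30 and 5.91 in KO on the high-fat diet, against 4.44, 4.08 and 4.24 in KO on chow, and rose by 1.85 ± 0.16. In WT, E2f8 read 6.19, 5.85 and 6.29 on the high-fat diet, against 4.64, 4.07 and 4.40 on chow, and rose by 1.74 ± 0.17. Among these 3 genes the repressor thus had the largest difference in both genotypes.

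The 6 subunits of the Mcm2 to Mcm7 helicase all rose, though unevenly. Mcm6 read 8.07, 8.40, 8.36 and 8.44 in KO on the high-fat diet, against 7.05, 6.78 and 7.07 in KO on chow, a difference of 1.35 ± 0.11 (adjusted p = 1.23e-06). WT mice had 8.40, 8.19 and 8.48 on the high-fat diet, against 6.73, 6.71 and 6.98 on chow, a difference of 1.55 ± 0.12 (adjusted p = 4.99e-07). Mcm5 rose by 1.41 ± 0.12 in KO and 1.47 ± 0.13 in WT, Mcm2 by 1.21 ± 0.11 and 1.28 ± 0.11, and Mcm3 by 1.13 ± 0.11 and 1.27 ± 0.11, in the same order of genotypes. Mcm4 rose by 0.50 ± 0.08 in KO and 0.57 ± 0.09 in WT, and Mcm7 by 0.45 ± 0.07 in KO and 0.38 ± 0.07 in WT. Subunits that work in equal numbers in 1 complex therefore had differences of unequal size. Probe sets differ in how they respond, so such sizes are those of the probe sets.

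Cdc6 and Cdc45, which load and complete the helicase, were also among the members with small differences. Cdc6 read 6.01, 6.20, 6.06 and 6.00 in KO on the high-fat diet, against 5.65, 5.41 and 5.72 in KO on chow, and rose by 0.48 ± 0.13 (adjusted p = 0.0125). In WT it read 6.04, 5.86 and 6.02 on the high-fat diet, against 5.76, 5.70 and 5.17 on chow, and rose by 0.43 ± 0.14 (adjusted p = 0.0288). The WT value leaned on the lowest chow array: without it the difference was 0.24 and the adjusted p 0.118. The call in WT was also lost without WT high-fat array 1 (adjusted p = 0.0855) or array 3 (0.0801), and that in KO without KO chow array 2 (0.0696). Cdc45 was the 1 measured member that did not pass, with 7.08, 7.09, 7.02 and 6.87 in KO on the high-fat diet, against 6.92, 6.86 and 6.96 in KO on chow. For WT the arrays gave 6.96, 6.98 and 7.09 on the high-fat diet, against 6.95, 6.89 and 6.72 on chow. The KO groups overlapped and the WT groups all but touched, with differences of 0.10 ± 0.08 (adjusted p = 0.372) and 0.16 ± 0.09 (adjusted p = 0.181).

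Ribonucleotide reductase makes deoxynucleotides from a large subunit, Rrm1, and a small subunit, Rrm2, which is the one known to be made and degraded with the cell cycle. Rrm2 read 8.12, 8.79, 8.53 and 8.60 in KO on the high-fat diet, against 6.77, 6.40 and 6.06 in KO on chow. The WT arrays gave 8.51, 8.21 and 8.44 on the high-fat diet, against 6.25, 6.09 and 6.13 on chow. It rose by 2.10 ± 0.16 in KO and 2.23 ± 0.18 in WT with no overlap. Rrm1 rose by 0.98 ± 0.10 in KO and 0.97 ± 0.11 in WT, less than the small subunit in both genotypes.

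Among the 7 mitotic kinases, the median difference was 1.65 in KO and 1.82 in WT, and all 7 rose in both genotypes. Bub1, a kinase of the spindle checkpoint, had the largest difference of the list in WT mice. It read 7.06, 7.63, 7.66 and 7.53 in KO on the high-fat diet, against 5.58, 5.47 and 5.24 in KO on chow, and rose by 2.04 ± 0.16 (4.11-fold). WT arrays read 7.81, 7.50 and 7.64 on the high-fat diet, against 4.95, 4.40 and 4.77 on chow, and rose by 2.94 ± 0.17 (7.68-fold). The high-fat arrays of the 2 genotypes overlapped, while all 3 KO chow arrays were above all 3 WT chow arrays. Its partner in the checkpoint, Bub1b, rose by 1.38 ± 0.13 in KO and 1.87 ± 0.14 in WT. Plk1, which acts at centrosomes and kinetochores through mitosis, rose by 1.76 ± 0.14 in KO and 1.83 ± 0.15 in WT. Aurka, the kinase of spindle poles, rose by 1.30 ± 0.14 in KO and 1.44 ± 0.15 in WT, and Aurkb, the kinase of the chromosomal passenger complex, by 1.66 ± 0.17 in KO and 1.82 ± 0.18 in WT. Melk rose by 1.65 ± 0.13 in KO and 1.69 ± 0.14 in WT, and the checkpoint kinase gene Ttk by 1.10 ± 0.09 in KO and 1.22 ± 0.10 in WT.

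The partners of Aurkb rose with it. Birc5, survivin, rose by 1.52 ± 0.12 in KO and 1.55 ± 0.13 in WT, and Cdca8, borealin, by 1.16 ± 0.12 in KO and 1.5 ± 0.13 in WT. Cdc20, which activates the ubiquitin ligase that starts anaphase, rose by 0.96 ± 0.14 in KO and 1.08 ± 0.15 in WT. All 4 kinetochore genes rose. Cenpe, the motor that carries chromosomes to the spindle middle, read 6.44, 7.13, 6.88 and 6.96 in KO on the high-fat diet, against 5.28, 4.81 and 5.16 in KO on chow, a difference of 1.77 ± 0.16. The WT values were 7.04, 6.62 and 7.01 on the high-fat diet, against 4.67, 4.63 and 4.72 on chow, a difference of 2.22 ± 0.17. The spread among the WT chow arrays was small (SD 0.05, n = 3) and the KO chow arrays all lay above them. Nuf2 and Ndc80, which sit together in the complex that grips microtubules, rose by 1.88 ± 0.14 and 1.5 ± 0.16 in KO and by 2.04 ± 0.15 and 1.32 ± 0.17 in WT. Cenpf rose by 1.35 ± 0.13 in KO and 1.55 ± 0.14 in WT.

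The 6 genes of the spindle and of cytokinesis rose in both genotypes, with a median of 1.89 in KO and 2.02 in WT. Tpx2, which starts microtubules around chromosomes, read 7.67, 7.81, 7.79 and 7.78 in KO on the high-fat diet, against 5.88, 5.52 and 5.66 in KO on chow, a difference of 2.07 ± 0.11 (adjusted p = 7.66e-08). In WT it read 7.96, 7.74 and 7.90 on the high-fat diet, against 5.76, 5.39 and 5.36 on chow, a difference of 2.37 ± 0.12 (adjusted p = 3.38e-08). Its 7 high-fat arrays lay close together, between 7.67 and 7.96, and its groups on the 2 diets did not overlap. Kif11, the motor that pushes spindle poles apart, rose by 2.05 ± 0.13 in KO and 2.12 ± 0.14 in WT, and Prc1, which bundles the midzone, by 2.08 ± 0.15 in KO and 2.13 ± 0.16 in WT. Kif11 and Prc1 each have 1 further probe set, both dim (at most 4.65 and 3.54), with differences of 0.53 and 0.05 in KO and 0.20 and 0.09 in WT. Kif23, a motor of the midzone, rose by 1.54 ± 0.11 in KO and 1.75 ± 0.12 in WT, and Kif2c, which takes microtubules apart at kinetochores, by 1.73 ± 0.14 in KO and 1.92 ± 0.15 in WT. Anln, anillin, which organises the contractile ring, rose by 0.74 ± 0.11 in KO and 0.79 ± 0.12 in WT, the smallest difference of the mitosis genes.

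**Figure D3:**
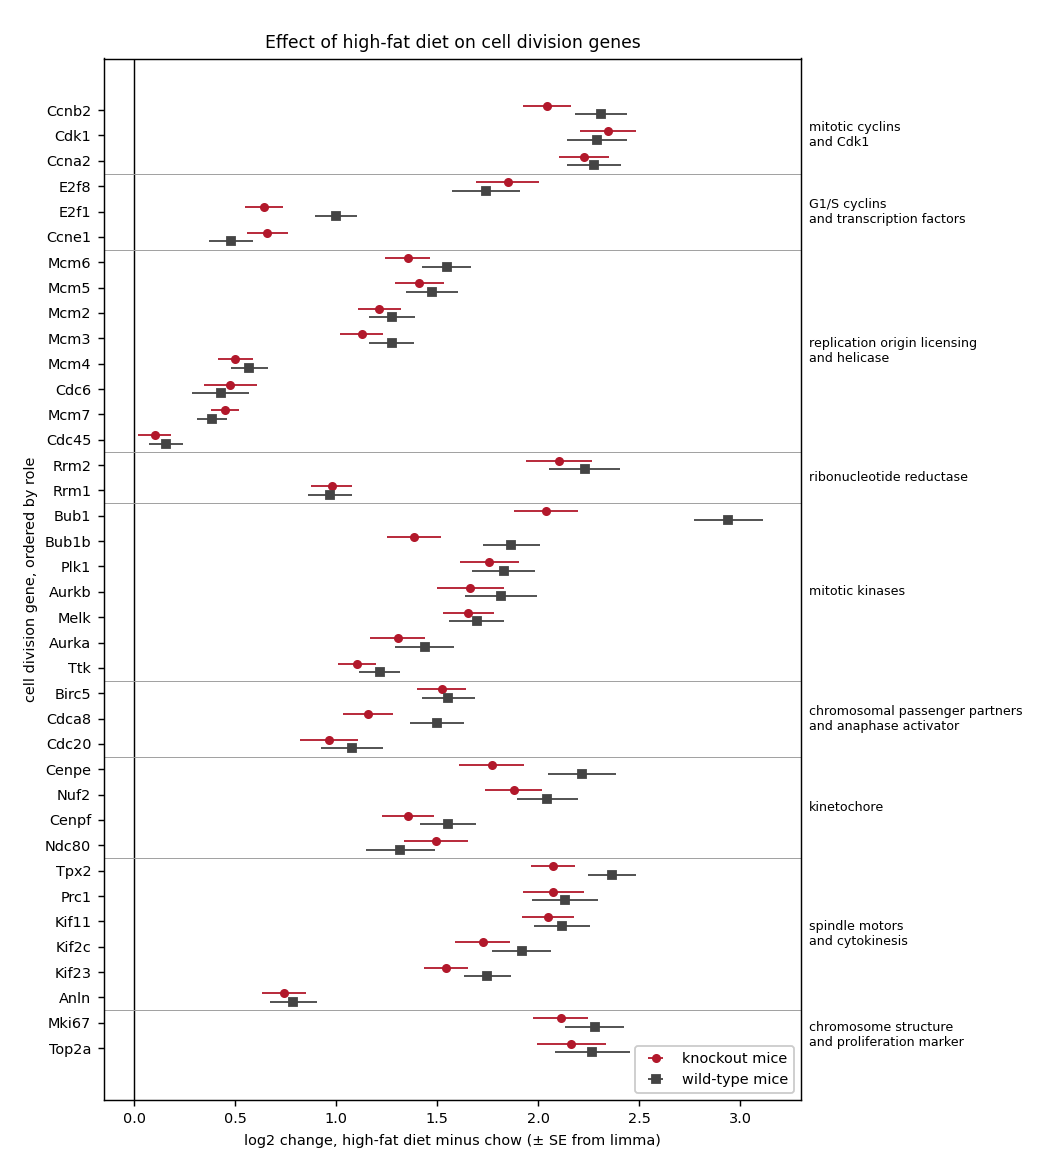
Difference between high-fat diet and chow in log2 expression (horizontal axis, points ± SE from limma) for each measured cell division gene (rows, by role), in KO mice (red circles) and in WT mice (grey squares). All points lie above 0, those of Cdc45 closest to it; mitosis genes have a median of 1.73 in KO and 1.87 in WT, and genes of G1/S and DNA replication 0.98 in KO and 1.00 in WT.

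Taken by phase, the 25 mitosis genes had a median difference of 1.73 in KO mice (range 0.74 to 2.35) and 1.87 in WT mice (0.79 to 2.94). The 13 genes of G1/S and DNA replication had a median of 0.98 in KO (0.10 to 2.10) and 1.00 in WT (0.16 to 2.23). At least 2-fold higher were 23 of 25 mitosis genes in KO and 24 of 25 in WT, against 6 of 13 genes of G1/S and replication in each genotype. Of all 18820 genes, 712 in KO and 916 in WT were so. The 20 measured members with a CHR element had medians of 1.52 in KO and 1.74 in WT, and the 14 without one 1.38 in KO and 1.51 in WT, with ranges that overlapped almost wholly. Both splits are descriptions with no test.

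Genes of the same processes outside the list moved likewise. The shares over all genes were 14.5% that rose and 19.7% that fell in KO, and 17.7% and 18.1% in WT. Of 46 further mitosis genes measured, 43 rose and 1 fell in KO mice (median 1.43) and 43 rose and 1 fell in WT mice (median 1.5). Spc25, in the same kinetochore complex as Nuf2 and Ndc80, rose by 2.67 ± 0.10 in KO (adjusted p = 1.17e-08) and 2.77 ± 0.10 in WT (adjusted p = 1.69e-08), and the checkpoint gene Mad2l1 by 1.62 ± 0.09 in KO and 1.80 ± 0.09 in WT. Ncaph, of the condensin complex, rose by 1.44 ± 0.07 in KO and 1.48 ± 0.08 in WT, and the spindle gene Dlgap5 by 1.62 ± 0.11 in KO and 1.84 ± 0.11 in WT. The gene that fell in both was Pttg1, securin, the guard of sister chromatid cohesion, with -0.55 ± 0.09 in KO (adjusted p = 0.000266) and -0.48 ± 0.09 in WT (adjusted p = 0.00114). Of 39 further genes of DNA replication and repair, 32 rose and 2 fell in KO (median 0.93), and 31 rose and 1 fell in WT (median 0.89). Brca1, of homologous recombination, rose by 1.83 ± 0.11 in KO and 2.16 ± 0.12 in WT, and the licensing factor Cdt1 by 1.97 ± 0.13 in KO and 1.92 ± 0.14 in WT. Lig1, the ligase of lagging strands, rose by 1.00 ± 0.09 in KO and 1.27 ± 0.10 in WT, and Mcm10 by 1.28 ± 0.11 in KO and 1.46 ± 0.12 in WT. Orc6, of the origin recognition complex, fell in both (-0.25 ± 0.09 in KO, adjusted p = 0.0479, and -0.39 ± 0.10 in WT, adjusted p = 0.00541), and Mcm8 fell in KO (-0.24 ± 0.08, adjusted p = 0.0344). Pttg1, Orc6 and Mcm8 are named after their values were seen, as the exceptions.

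Upstream of S phase the picture was mixed. Of 15 genes for G1 cyclins, their kinases and growth-related transcription factors, 8 rose and 1 fell in KO (median 0.26), and 10 rose and 1 fell in WT (median 0.42). Cdk6, a partner of the D cyclins, rose by 1.52 ± 0.15 in KO and 1.89 ± 0.16 in WT, and Ccnd1, cyclin D1, by 0.73 ± 0.09 in KO and 0.70 ± 0.09 in WT. Skp2, which marks the inhibitor p27 for degradation, rose by 1.11 ± 0.12 in KO and 1.32 ± 0.13 in WT, and Mybl2, B-Myb, by 1.00 ± 0.10 in KO and 0.77 ± 0.11 in WT. Ccnd3, cyclin D3, was the exception that fell, with -0.67 ± 0.12 in KO and -0.50 ± 0.12 in WT. Of 19 cell cycle inhibitors and pocket proteins, 4 rose and 3 fell in KO (median 0.00), and 5 rose and 2 fell in WT (median 0.06). Over all genes 14.5% rose and 19.7% fell in KO, and 17.7% rose and 18.1% fell in WT. The counts of the inhibitors and pocket proteins are thus near the background. In the list of 15 genes, the 8 in KO and 10 in WT that rose are above it. Gadd45b, a stress gene, rose by 1.52 ± 0.09 in KO and 1.63 ± 0.10 in WT, and Cdkn1a, the inhibitor p21, by 1.23 ± 0.17 in KO and 2.02 ± 0.19 in WT. Cdkn2c, the inhibitor p18, fell (-0.81 ± 0.09 in KO and -1.01 ± 0.10 in WT), as did Rb1, the retinoblastoma protein (-0.32 ± 0.06 in KO and -0.32 ± 0.06 in WT).

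Of 7 genes for macrophage growth factors and their receptors, 3 rose and 3 fell in KO, and 4 rose and 2 fell in WT. The receptors rose: Csf1r by 0.88 ± 0.11 in KO and 1.04 ± 0.11 in WT, Csf2ra by 0.95 ± 0.13 in KO and 1.56 ± 0.13 in WT, and Csf2rb by 0.62 ± 0.08 in KO and 0.79 ± 0.08 in WT. Both ligands of Csf1r fell, Csf1 (-0.37 ± 0.10 in KO and -0.35 ± 0.10 in WT) and Il34 (-0.65 ± 0.10 in KO and -0.46 ± 0.11 in WT), and are named after their values were seen. Ccl2, a chemokine that draws in monocytes, had a difference of 0.47 ± 0.20 in KO (adjusted p = 0.0859) and rose by 1.71 ± 0.21 in WT (adjusted p = 2.9e-05). No gene of this list passed the test of the difference between genotypes in the diet effect, which 0% of all genes passed.

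Markers of several cell types moved with diet beside the cell division genes. Among all genes, 14.5% rose and 19.7% fell in KO, and 17.7% rose and 18.1% fell in WT. Of 10 macrophage markers, 9 rose and 1, Mertk, fell in KO (median 1.25), and 9 rose and 0 fell in WT (median 1.41). Adgre1, a surface antigen of mouse macrophages, rose by 1.95 ± 0.13 in KO and 2.32 ± 0.13 in WT. Their mean ran between 10.34 and 10.62 in KO and between 10.31 and 10.72 in WT on the high-fat diet, against between 9.11 and 9.35 in KO and between 8.85 and 9.17 in WT on chow. Of 8 markers of lipid-associated macrophages, 7 rose in each genotype (median 1.77 in KO and 2.00 in WT), Trem2 by 3.26 ± 0.21 in KO and 3.89 ± 0.22 in WT. Of 7 mast cell markers, 6 rose in KO (median 1.28) and 5 in WT (median 1.25). Of 9 adipocyte markers, 7 fell and 1, Lep, rose in KO (median -0.62), and 8 fell and 1, Lep, rose in WT (median -0.71). All 6 mesothelial markers fell in both genotypes, with a median of -1.17 in KO and -1.29 in WT. The part of these cell types in the rise of the cell division genes was not tested.

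Markers of other cell types that can divide were mixed. For comparison, 14.5% of all genes rose and 19.7% fell in KO, and 17.7% rose and 18.1% fell in WT. Of 9 markers of adipocyte progenitors and fibroblasts, 3 rose and 3 fell in KO (median 0.00), and 2 rose and 4 fell in WT (median -0.14). Col1a1, a chain of the collagen that fibroblasts make, rose by 1.01 ± 0.11 in KO and 1.03 ± 0.12 in WT, while Cd24a fell, with -0.96 ± 0.19 in KO and -1.32 ± 0.20 in WT. Of 8 endothelial markers 0 rose, and 2 fell in KO (median -0.14) and 5 in WT (median -0.44). Of 5 T cell and 5 B cell markers, 0 passed in either genotype in limma. The T cell medians were -0.03 in KO and 0.04 in WT, and the B cell medians -0.07 in KO and -0.38 in WT. At an unadjusted p under 0.05 there were 0 T cell markers in either genotype, and 0 B cell markers in KO and 1 in WT. Of 11 testis and germ cell markers 1 passed, Sycp3, of the meiotic chromosome axis, with 1.86 ± 0.33 in KO and 1.44 ± 0.35 in WT, and the medians of that list were -0.08 in KO and -0.03 in WT. Of 10 liver markers 0 passed in KO (median -0.20) and 6 fell in WT (median -1.10), and their mean was between 5.29 and 6.42 in KO and between 5.61 and 7.68 in WT on the high-fat diet, against between 5.75 and 5.94 in KO and between 7.19 and 8.10 in WT on chow.

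**Figure D4:**
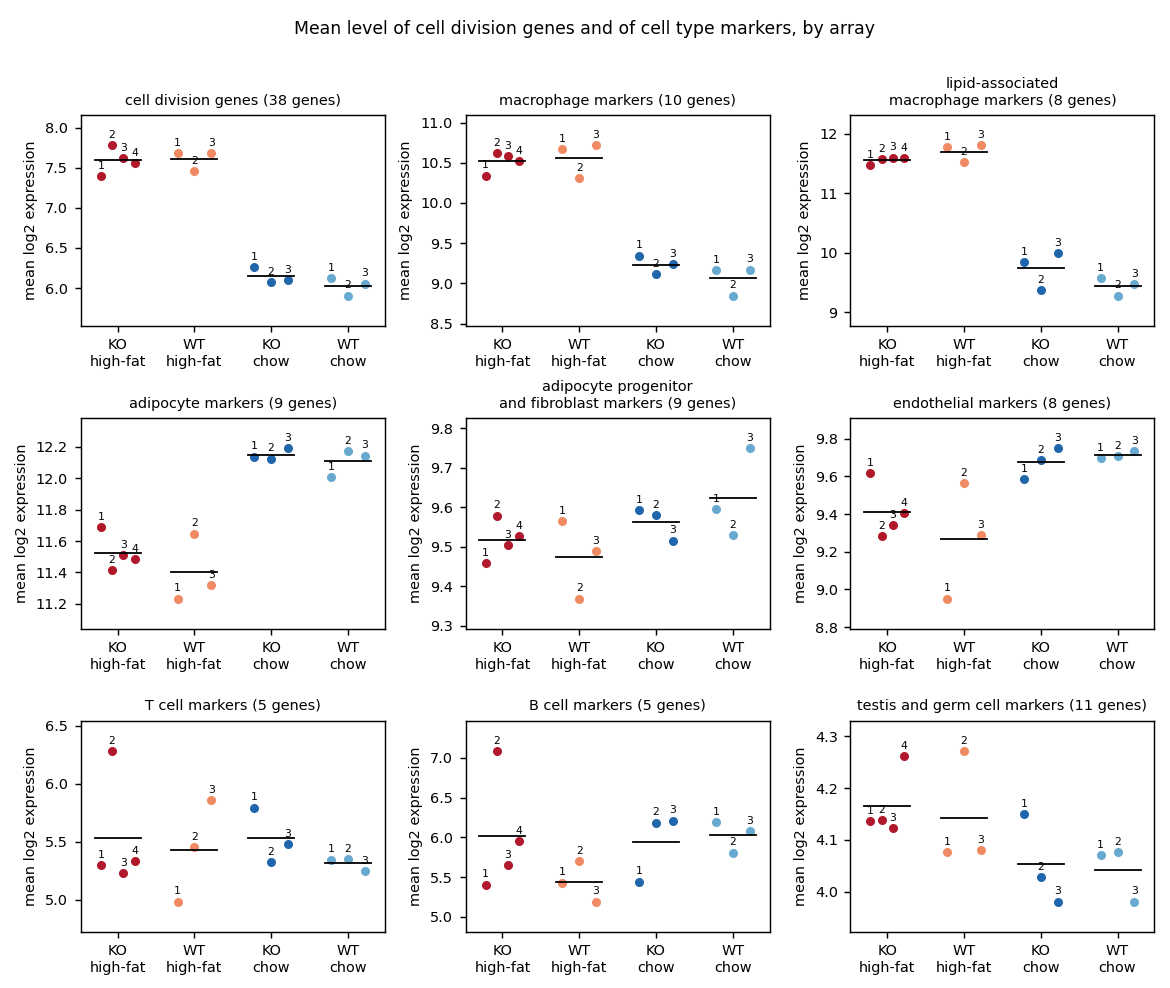
Mean log2 expression (vertical axis, a scale of its own in each panel) of the 38 cell division genes and of 8 cell type marker lists on each array (points, numbered by replicate; lines show group means). From left, each panel shows KO high-fat diet, WT high-fat diet, KO chow and WT chow. Cell division genes and both macrophage lists separate the diets with higher means on the high-fat diet, and adipocyte markers separate them with lower means. The other lists, B cell and T cell markers among them, overlap between the diets.

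Within the high-fat diet, arrays that were high or low were so for many members at once. The mean over the 38 genes was 7.40, 7.78, 7.63 and 7.56 in KO mice on the high-fat diet and 7.68, 7.46 and 7.68 in WT mice on the high-fat diet. KO high-fat array 2 was the highest of the 7 for 23 of 38 members, and KO high-fat array 1 the lowest for 23, with WT high-fat array 2 the lowest for 8 more and KO high-fat array 4 for 7. The 2 arrays with the lowest mean of the cell division genes, KO high-fat array 1 and WT high-fat array 2, also had the lowest macrophage marker means (10.34 and 10.31) and the highest adipocyte marker means (11.69 and 11.65). KO high-fat array 2 had the highest T cell and B cell marker means of all 13 arrays (6.28 and 7.08). Its macrophage marker mean, 10.62, was below those of WT high-fat arrays 1 and 3 (10.67 and 10.72). On chow the mean over the 38 genes was 6.26, 6.08 and 6.10 in KO and 6.12, 5.90 and 6.06 in WT. WT chow array 2, the lowest for 23 members, also had the lowest macrophage marker mean (8.85). Whether these markers and the cell division genes vary for a common reason was not tested. Without KO high-fat array 2 the median diet difference in KO mice was 1.45, and without array 1 it was 1.60, each with 37 members past the threshold.

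The question that the study's cross of genotype and diet puts to these genes is whether loss of P2X7 changed them. On the high-fat diet it did not do so detectably. Of 38 members 0 passed (where 0.0425% of all genes did), 0 had an unadjusted p under 0.05 (1394 of all 18820 genes did), and the smallest adjusted p was 0.842 in limma. The median difference between KO and WT was -0.03, against -0.01 over all genes, with a range of -0.18 (Bub1) to 0.13 (Ndc80), and 23 of 38 values below 0, as were 10251 of 18820 over all genes. The 95% intervals bound what could have been missed: over all 38 members they ran from -0.53 to 0.48, and each lay within a 1.5-fold change either way. Over all genes, 17581 of 18820 intervals lay within that change. For 0 of 38 members were the KO and WT high-fat arrays fully apart, where 6.68% of all genes were so.

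On chow 0 members passed either (0.133% of all genes did), and 5 had an unadjusted p under 0.05, as did 1810 of all 18820 genes. The median difference between KO and WT was 0.07, against 0.02 over all genes, and 32 of 38 values were above 0, as were 10964 of 18820 over all genes. All KO chow arrays lay above all WT chow arrays for 5 members, Bub1, Bub1b, Cenpe, E2f1 and Kif2c, and below them for 0; over all genes the groups were apart in 1 direction or the other for 14.9%, so this count is near the background. Bub1 had the largest value, 0.72 ± 0.17 (95% interval 0.35 to 1.09, adjusted p = 0.198), followed by Cenpe with 0.41 ± 0.17 (adjusted p = 0.46) and Bub1b with 0.37 ± 0.14 (adjusted p = 0.423). The lowest was E2f8 with -0.12. For 33 members the interval lay within a 1.5-fold change, and for 37, all but Bub1, within a 2-fold change. Over all 18820 genes it did so for 17207 and 18496.

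The effect of diet itself was compared between genotypes as the diet difference in KO minus that in WT, which uses the same arrays as the comparisons above. Of 38 members 0 passed, as did 0% of all genes, and the smallest adjusted p was 0.32 in limma. At an unadjusted p under 0.05 there were 3 members, against 1829 of all 18820 genes. The median was -0.11, against -0.03 over all genes, and 31 of 38 values were below 0, as were 11019 of 18820 over all genes. The 3 members were Bub1 with -0.90 ± 0.23 (95% interval -1.41 to -0.40), Bub1b with -0.48 ± 0.19 (adjusted p = 0.46) and E2f1 with -0.36 ± 0.14 (adjusted p = 0.455). For Bub1 this is mostly the gap on chow described above, where the genotypes differed by 0.72 ± 0.17. On the high-fat diet they differed by -0.18 ± 0.16, in the other direction. The interval lay within a 1.5-fold change for 22 members and within a 2-fold change for 37. Over all 18820 genes it did so for 14775 and 17996. A p that misses the threshold does not show that the genotypes were alike, and the intervals give the size of difference that these arrays leave possible.

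**Figure D5:**
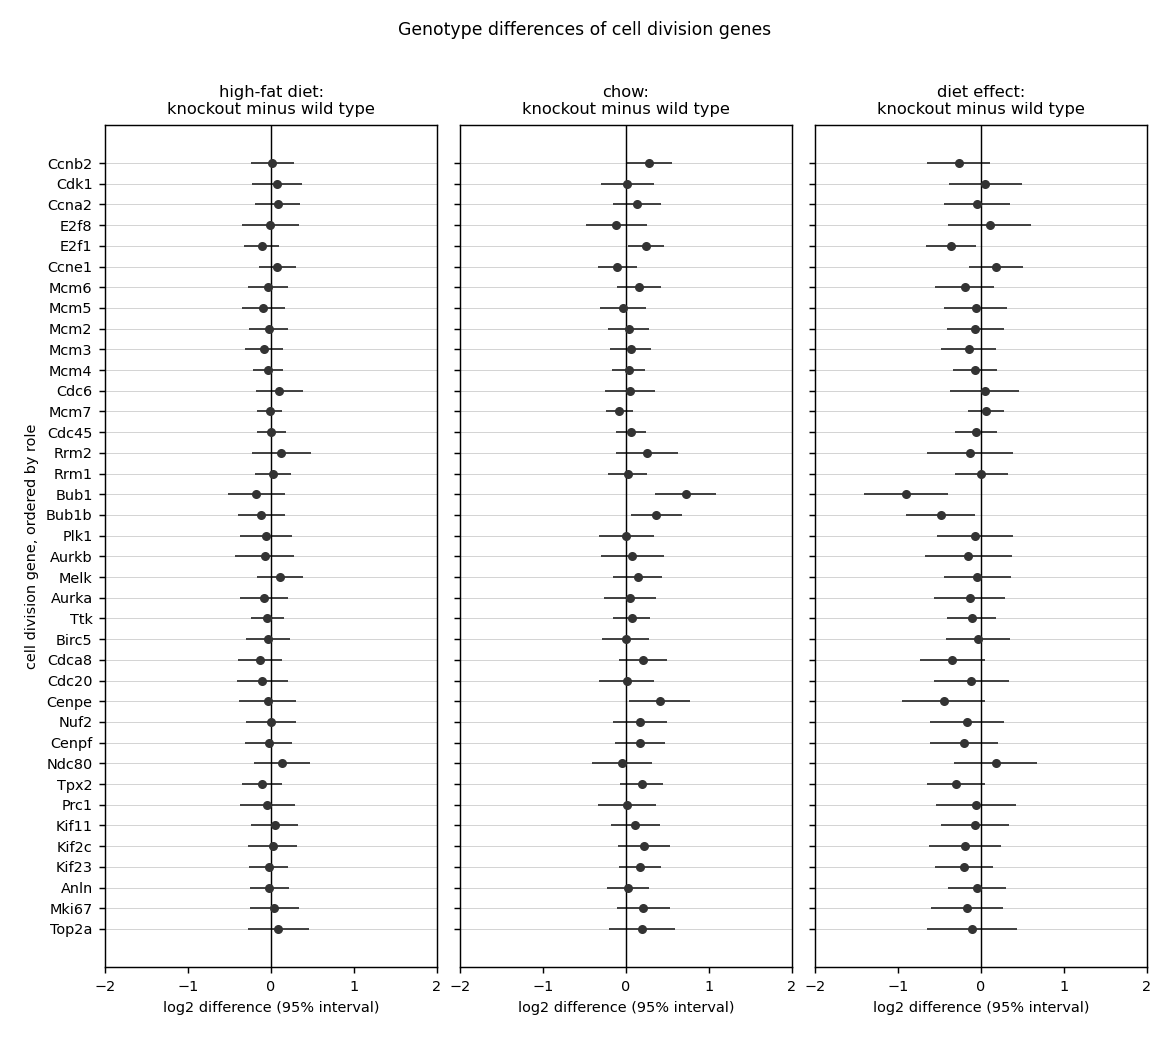
Differences in log2 expression with 95% intervals (horizontal axes) for each measured cell division gene (rows, by role): KO minus WT on the high-fat diet, KO minus WT on chow, and the diet difference in KO minus that in WT. On the high-fat diet every value lies between -0.18 and 0.13; on chow Bub1 stands out at 0.72, and in the diet comparison at -0.90.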

How the data were processed

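The deposited values are log2 expression per probe set, made by the authors with RMA (background correction, quantile normalization and summary of probes) per the submitters' processing notes; the version and build are not given in the sources used here. Of 35556 probe sets, 21218 were paired with 1 gene symbol, 1881 with several and 12457 with none. Probe sets with 1 symbol were kept, and each of 18820 genes was read from its brightest probe set by the overall mean. The number of arrays per group limits the precision. Group means were fitted over all 13 arrays with limma 3.58.1 (lmFit, eBayes with an intensity trend) in R 4.3.3, and p-values were adjusted by Benjamini-Hochberg over all genes, with a threshold of 0.05. The steps were tested on simulated data. Alternatives were median centring, a second quantile normalization, no trend, array weights, a filter on dim genes, the mean over probe sets, fits on the compared groups only, a minimum fold change of 1.5, a replicate block and each array left out. All members are given; from each further pathway list up to 4 genes that passed were named by smallest p in WT, and from marker lists up to 2 with values. Genes that went against the rest of a list (Pttg1, Orc6, Mcm8, Ccnd3, Csf1, Il34) were named after their values were seen. The members and lists were chosen with earlier results of these data known. Promoters were searched with Python 3.11.15 and pandas 2.3.3, and figures drawn with matplotlib 3.10.9.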

Additional observations from a re-analysis of the deposited data

How the results depend on the processing

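Direction was kept for every member that passed, under every alternative run. The count of members that rose was between 30 and 37 in KO and between 31 and 37 in WT, the lowest values with a required fold change of 1.5, and 30 in KO and 31 in WT passed under every alternative. Leaving out 1 array at a time gave 36 to 37 in KO, with a median of 1.42 to 1.60, and 36 to 37 in WT, with a median of 1.58 to 1.72. Over the same fits 0 members passed for genotype on the high-fat diet (median -0.09 to 0.04), for genotype on chow (0.05 to 0.14) or for the difference between genotypes in the diet effect (-0.20 to -0.05). Taking the mean over all probe sets of a gene gave a median of 1.37 in KO, since the dim extra probe sets of Top2a, Kif11 and Prc1 then count. Cdc6 was not past the threshold in WT after median centring (adjusted p = 0.0694), a second quantile normalization (0.0740) or with only the WT arrays in the fit (0.10). Of 18 same-numbered pairs of arrays, 6 correlated above 0.1 in their deviations from the group means (r from -0.30 to 0.22). Differently numbered pairs were not compared, so whether the replicate numbers pair the arrays is not settled here. With the replicate number as a block, 37 members rose in KO (median 1.52) and 36 in WT, Cdc6 being lost (adjusted p = 0.0554). That fit draws nothing on the diet effect from KO high-fat array 4, which has no partner of its number. With 3 or 4 arrays a group, the intervals of the genotype differences set what can be resolved.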
